A study of Mus musculus with 15 samples.

Results

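The salivary secretoglobins described here are 8 mouse genes of the androgen-binding protein family, Scgb1b2, Scgb1b24, Scgb1b27, Scgb2b2, Scgb2b7, Scgb2b24, Scgb2b26 and Scgb2b27, taken by name from the 39179 genes counted in RNA of the submandibular salivary gland. The glands came from adult male C57BL/6 mice and gave 15 libraries, 3 in each of 5 groups. The first 3 groups were irradiated glands with intra-gland transfer of Shh (IR+Shh), of Gli1 (IR+Gli1) or of green fluorescent protein (IR+GFP), and they were compared with irradiated glands of wild-type mice without transfer (IR) and with non-treated wild-type glands (NT). All irradiated glands, the transfer controls included, were taken 7 days after local irradiation (IR). The labels give neither the radiation dose, the vector, the species of the transferred genes nor the time of transfer, and none states that each library had its own animal. The p-values given here therefore reflect spread among these samples alone, which may be technical.

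Secretoglobins are small secreted proteins that form dimers around a cavity that can hold a hydrophobic ligand. In the androgen-binding proteins of the mouse, an alpha subunit from an Scgb1b gene is joined by a disulfide bond to a beta or gamma subunit from an Scgb2b gene. In saliva the alpha subunit is the product of Scgb1b27, and its partners are the products of Scgb2b26 and Scgb2b27. These proteins coat the fur during grooming and are known for a part in mate recognition between mouse subspecies. Other members of the family are known mainly from the lacrimal gland.

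All 8 genes lie in a cluster on chromosome 7, given here on GRCm38 with GENCODE vM21 names. The cluster runs from base 31255891 to base 34100837 and has 64 annotated Scgb1b and Scgb2b genes, 35 of them pseudogenes, of which 27 are among the counted genes. Scgb1b27 (ENSMUSG00000066583) covers chr7:34021483-34022881 on the plus strand, and Scgb2b27 (ENSMUSG00000066584) covers chr7:34011921-34013942 on the minus strand. This alpha gene and its beta/gamma neighbour are thus placed head to head, with their starts 7541 bp apart. Scgb2b26 (ENSMUSG00000066586), at chr7:33943002-33945040 on the minus strand, starts 68902 bp from Scgb2b27. Scgb2b24 (ENSMUSG00000046438, chr7:33737190-33739312, minus) and Scgb1b24 (ENSMUSG00000078753, chr7:33743799-33744982, plus) form another head-to-head pair with starts 4487 bp apart. At the other end of the cluster are Scgb2b7 (ENSMUSG00000094053, chr7:31703779-31705757, minus), Scgb1b2 (ENSMUSG00000062556, chr7:31290519-31291821, minus) and Scgb2b2 (ENSMUSG00000036521, chr7:31290508-31304977, plus). Scgb1b2 and Scgb2b2 overlap by 1303 bp on opposite strands, and the strand setting of the counting, which decides how reads in the overlap are assigned, is not given in the sources used here.

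The upstream sequences of the 3 genes that carried nearly all reads are shown because these genes moved together in the comparisons that follow. RefSeq promoter windows (GRCm38.p6) matched all 8 genes by symbol, and the stretches printed 5′ to 3′ lie before both the RefSeq and the GENCODE start. They are chr7:34021231-34021480 (plus) for Scgb1b27, chr7:34013943-34014192 (minus) for Scgb2b27 and chr7:33945041-33945235 (minus) for Scgb2b26.
Scgb1b27: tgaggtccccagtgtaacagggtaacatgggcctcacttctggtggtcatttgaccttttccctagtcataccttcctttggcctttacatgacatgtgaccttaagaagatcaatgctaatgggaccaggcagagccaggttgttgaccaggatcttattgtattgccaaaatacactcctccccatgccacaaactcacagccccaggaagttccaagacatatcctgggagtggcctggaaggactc
Scgb2b27: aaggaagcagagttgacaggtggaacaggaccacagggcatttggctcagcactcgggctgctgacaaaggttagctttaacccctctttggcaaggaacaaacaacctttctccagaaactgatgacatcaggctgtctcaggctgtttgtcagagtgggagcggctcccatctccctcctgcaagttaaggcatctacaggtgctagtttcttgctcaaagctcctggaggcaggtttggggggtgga
Scgb2b26: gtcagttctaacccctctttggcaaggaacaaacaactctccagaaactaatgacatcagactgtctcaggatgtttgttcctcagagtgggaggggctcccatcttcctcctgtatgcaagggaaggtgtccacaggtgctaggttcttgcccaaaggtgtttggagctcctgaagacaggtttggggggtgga

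The hexamer TGTTCT, which reads AGAACA on the opposite strand, is the core that the glucocorticoid receptor binds. It was searched on both strands of the RefSeq windows, each of 250 bases before and 50 bases after a start. It occurred in 19.0% of 32851 windows. Among the 8 secretoglobins it was found in Scgb2b2 (2 matches), Scgb2b7 (1) and Scgb2b24 (1), none of which was expressed at more than a trace, and not in Scgb1b27, Scgb2b26, Scgb2b27, Scgb1b2 or Scgb1b24. The 5 Scgb2b windows share a stretch around this place, which is printed here for 30 bases with the hexamer in capitals where it is complete. The stretches lie at chr7:33945142-33945171 (minus) for Scgb2b26, chr7:34014026-34014055 (minus) for Scgb2b27, chr7:33739471-33739500 (minus) for Scgb2b24, chr7:31705919-31705948 (minus) for Scgb2b7 and chr7:31302571-31302600 (plus) for Scgb2b2.
Scgb2b26: tctcaggatgtttgttcctcagagtgggag
Scgb2b27: tctcaggctgtttgtcagagtgggagcggc
Scgb2b24: tctcagggtgttTGTTCTtcagagtgggag
Scgb2b7: tctcagggtgttTGTTCTtcagagtgggag
Scgb2b2: tctcaggatgttTGTTCTtcagattgggca

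Counted from 1 at the 5′ end of the stretch, Scgb2b26 differs from Scgb2b24 by G8A and T18C, and T18C is the change that breaks the hexamer. Scgb2b7 has 0 differences from Scgb2b24, Scgb2b2 has 4 (G8A, G24T, A29C, G30A), and Scgb2b27 has 12 when read without gaps. Most of these 12 come from a shift. With a short gap in Scgb2b27 at the end of the hexamer, the bases on both sides line up with Scgb2b24 and only G8C is left. The letters TATAA, which read TTATA on the opposite strand so that matches can overlap, occurred in 24.9% of all windows and in those of all 8 secretoglobins. In Scgb1b27 and Scgb2b27 the matches lay only after the RefSeq start, from bases 42 and 43 and from bases 28 and 29. In the other secretoglobins all matches lay before that start, between -53 and -27. The side of a match depends on the start used. For Scgb2b26 the RefSeq start lies 55 bases downstream of the GENCODE start, so its matches lie after the GENCODE start. For Scgb2b27 the RefSeq and GENCODE starts coincide. A sequence match is a description of these windows and not a binding site.

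Gene reads per library ranged from 18205941 to 41064723, so that 3 reads, the limit that a count of 0 allows for counting error alone, correspond to 0.0731 to 0.165 CPM, counts scaled to a common library total. In each group a pair of libraries (IR+Shh 1 and 3, IR+Gli1 1 and 2, IR+GFP 1 and 2, IR 1 and 2, NT 2 and 3) differed by less than sampling noise, with a mean chi-square per gene of 0.215 to 0.337, against 22.0 to 223 in the 10 other pairs within groups. Each such pair was counted as 1 sample, which left n = 2 samples per group and 10 in all. Reads of Gli1 itself were at 0.540 and 0.672 CPM in the samples labelled IR+Gli1, against 0.768 and 0.554 CPM in IR+GFP, so the label IR+Gli1 is not borne out by reads of the mouse gene. Gli1 stood at 2.69 and 4.24 CPM in IR+Shh, and Shh was at 0 CPM in all 10 samples. The transferred sequences are not given, so the presence of a transferred gene cannot be read from these counts. The 6 tested acinar markers of the gland were present in every sample, with the water channel Aqp5 at 137 to 380 CPM. Of the other listed acinar markers, Dcdc2a stood at no more than 0.0615 CPM and Muc10 was not found under that symbol. The combined sample NT 2 and 3 stood apart by summed sublingual gland markers of 2975 CPM, against 2.85 CPM in NT 1 and at most 49.1 CPM elsewhere. Nearly all of that sum was Bpifa2 and Muc19, at 1602 and 1370 CPM. The other listed sublingual markers showed no such excess, with Gal3st3 at 2.50 CPM (2.46 CPM in NT 1) and Tff2 and Bpifb2 at 0 CPM in both NT samples. In NT 2 and 3 the summed intercalated duct markers were 33260 CPM, against 35.7 CPM in NT 1 and at most 191 CPM elsewhere. Nearly all of that duct sum was Dcpp1, Dcpp2 and Dcpp3, at 4006, 13050 and 16040 CPM. The listed duct markers Kit (21.7 CPM, against 31.2 CPM in NT 1) and Gstt1 (3.67 against 3.09 CPM) showed no such excess. IR+GFP 3 and IR+Gli1 3 had 8.22% and 7.53% of reads with several alignments, against 2.89% to 4.79% in the other libraries.

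Among the 8 genes, 3 were read in great depth and the rest hardly at all. Scgb1b27, Scgb2b27 and Scgb2b26 passed the filter on low counts and held at least 99.99911% of the reads of the 8 genes in each library. By reads, Scgb1b27 ranked between 2 and 11 among all genes of a sample, Scgb2b27 between 6 and 9, and Scgb2b26 between 17 and 52. Together the 8 genes took 5.98% and 5.90% of gene reads in IR+Shh, 1.72% and 2.74% in the samples labelled IR+Gli1, 6.15% and 5.23% in IR+GFP, 5.27% and 6.12% in IR, and 5.86% and 4.31% in NT. The widest 95% Wilson interval of these shares reached 0.0109 percentage points to either side, which covers counting error only. Both samples labelled IR+Gli1 lay below the 8 others.

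Scgb1b27, the alpha subunit gene, was at 31982 and 28946 CPM (scaled by TMM) in IR+Shh, 4575.5 and 9978 CPM in the samples labelled IR+Gli1, 34563 and 28674 CPM in IR+GFP, 29415 and 33338 CPM in IR, and 31899 and 22529 CPM in NT. The samples labelled IR+Gli1 were the lowest of the 10, and the ranges of the other 4 groups overlapped. Scgb2b27, a beta/gamma partner, was at 26288 and 25328 CPM in IR+Shh, 4700 and 9469 CPM in the samples labelled IR+Gli1, 29529 and 26297 CPM in IR+GFP, 26507 and 29934 CPM in IR, and 26146 and 19622 CPM in NT. The samples labelled IR+Gli1 were again the lowest, and both IR+Shh samples lay just below the IR+GFP and IR samples. That place of IR+Shh held only with TMM. Per total gene reads Scgb2b27 was at 24751 and 25176 CPM in IR+Shh, within IR+GFP (25532 and 23279 CPM) and IR (23040 and 26617 CPM). Scgb2b26, the other partner, was at 5260 and 5083 CPM in IR+Shh, 739 and 1487 CPM in the samples labelled IR+Gli1, 6989 and 4110.5 CPM in IR+GFP, 4724 and 5526 CPM in IR, and 8340 and 5226 CPM in NT. Here too the samples labelled IR+Gli1 were lowest, while the IR+Shh, IR+GFP and IR ranges overlapped.

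**Figure D1:**
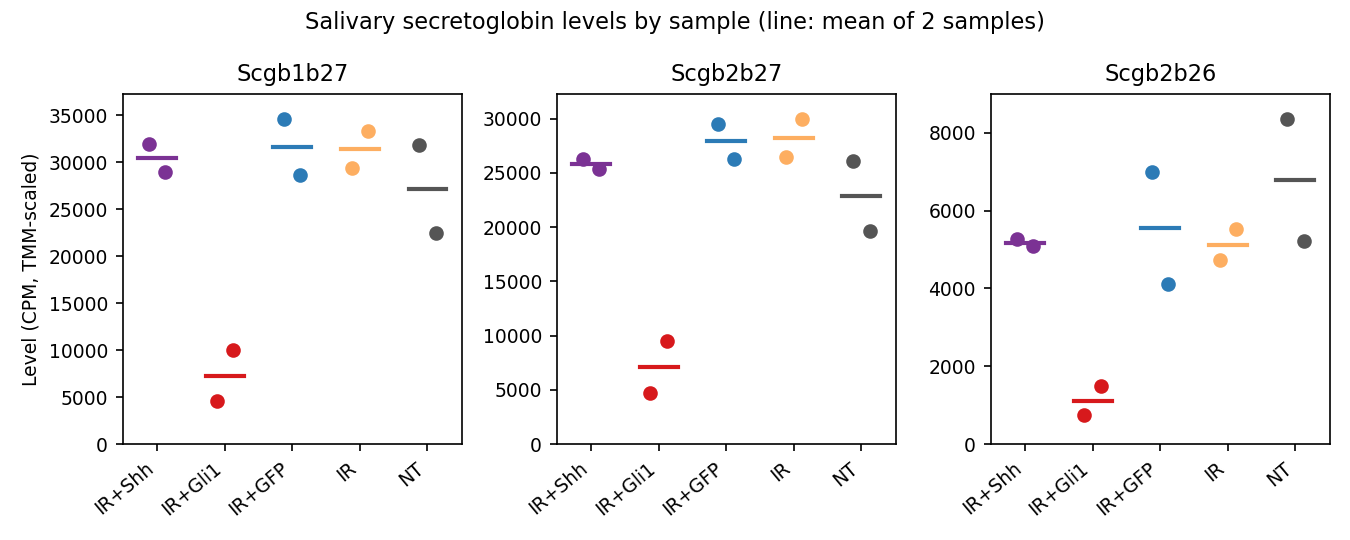
Level of Scgb1b27, Scgb2b27 and Scgb2b26 (CPM, TMM-scaled, axes from 0) in the 10 samples, with groups from IR+Shh at the left to NT at the right; points are samples and lines are means of 2 samples. In each panel the samples labelled IR+Gli1 lie below all others.

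Per kilobase of principal transcript, the order of the genes by level was Scgb1b27, Scgb2b27, Scgb2b26 in every group. On that scale Scgb1b27 averaged 61790 ± 4355 CPM per kb in IR+Shh, 14760 ± 7748 in the group labelled IR+Gli1, 64130 ± 8447 in IR+GFP, 63640 ± 5626 in IR and 55200 ± 13440 in NT, each the mean ± SD of 2 samples. Scgb2b27 averaged 50410 ± 1327 CPM per kb in IR+Shh, 13840 ± 6586 in the group labelled IR+Gli1, 54520 ± 4463 in IR+GFP, 55120 ± 4732 in IR and 44700 ± 9010 in NT. In the 2 samples labelled IR+Gli1, Scgb1b27 was at 9281 and 20240 CPM per kb and Scgb2b27 at 9180 and 18490. Scgb2b26 averaged 8932 ± 216 CPM per kb in IR+Shh, 1922 ± 913 in the group labelled IR+Gli1, 9585 ± 3515 in IR+GFP, 8851 ± 980 in IR and 11710 ± 3803 in NT.

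The comparison of the group labelled IR+Gli1 with IR+GFP asked what differed between glands labelled with transfer of a Hedgehog transcription factor and a transfer control. All 3 tested secretoglobins were lower in the group labelled IR+Gli1, by 3.94- to 4.99-fold. Calls in this direction were made for 816 of 14300 genes, or 5.71%. Scgb1b27 averaged 7277 ± 3820 CPM in the group labelled IR+Gli1, against 31620 ± 4164 CPM in the IR+GFP samples (mean ± SD, 2 samples each), a log2 fold change of -2.12 ± 0.35 (SE; edgeR quasi-likelihood test, two-sided, Benjamini-Hochberg adjusted p = 0.00729). Scgb2b27 averaged 7085 ± 3372 CPM in the group labelled IR+Gli1 and 27910 ± 2285 CPM in IR+GFP, with a log2 fold change of -1.98 ± 0.32 (edgeR adjusted p = 0.00642). Scgb2b26 averaged 1113 ± 529 CPM in the group labelled IR+Gli1 and 5550 ± 2035 CPM in IR+GFP, with a log2 fold change of -2.32 ± 0.39 (edgeR adjusted p = 0.00837). Only 0.364% to 0.545% of the tested genes had a lower fold change than one of these genes.

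The size of this difference depended on the scaling, and its call on the sample IR+GFP 1 and 2. Per total gene reads Scgb1b27 averaged 10450 ± 3675 CPM in the group labelled IR+Gli1 and 27630 ± 3183 CPM in IR+GFP, and with that scaling the log2 fold changes were -1.40 for Scgb1b27, -1.26 for Scgb2b27 and -1.59 for Scgb2b26, while the median of all genes moved to 0.79. Without IR+GFP 1 and 2, none of the 3 passed in edgeR (adjusted p = 0.0804, 0.0720 and 0.0791 for Scgb1b27, Scgb2b27 and Scgb2b26), nor in a fit of these groups alone (adjusted p = 0.0911, 0.0905 and 0.0837). Without IR+Gli1 3, the log2 fold changes were -2.80, -2.58 and -2.92 for Scgb1b27, Scgb2b27 and Scgb2b26. Without both IR+GFP 3 and IR+Gli1 3, the log2 fold changes were -2.93, -2.66 and -3.25 in the same order. In bulk RNA, fewer cells of a type and less RNA per cell cannot be told apart.

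IR+Shh compared with the group labelled IR+Gli1 gave the same genes in the other direction. All 3 were higher in IR+Shh, by 3.64- to 4.65-fold, and calls in this direction were made for 395 of 14300 genes, or 2.76%. The log2 fold change was 2.07 ± 0.35 for Scgb1b27 (30460 ± 2147 CPM in IR+Shh, 7277 ± 3820 CPM in the group labelled IR+Gli1; edgeR adjusted p = 0.0160). It was 1.87 ± 0.32 for Scgb2b27 (edgeR adjusted p = 0.0157) and 2.22 ± 0.39 for Scgb2b26 (edgeR adjusted p = 0.0188). This comparison shares its samples labelled IR+Gli1 with the one before. None of the 3 passed without IR+Shh 1 and 3 (adjusted p = 0.137, 0.137 and 0.141 for Scgb1b27, Scgb2b27 and Scgb2b26), without IR+Shh 2 (0.114, 0.121 and 0.127) or in a fit of these groups alone (0.0996, 0.103 and 0.0836), and Scgb2b26 did not pass without IR+Gli1 1 and 2 (adjusted p = 0.0670). Without IR+Gli1 3 the log2 fold changes were 2.74, 2.46 and 2.81 for Scgb1b27, Scgb2b27 and Scgb2b26.

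IR+Shh compared with IR+GFP gave no call among the 3 secretoglobins. Scgb1b27 averaged 30460 ± 2147 CPM in IR+Shh and 31620 ± 4164 CPM in IR+GFP, a log2 fold change of -0.05 ± 0.34 (edgeR adjusted p = 0.985). Scgb2b27 averaged 25810 ± 679 CPM in IR+Shh and 27910 ± 2285 CPM in IR+GFP, with -0.11 ± 0.31 (adjusted p = 0.959). Scgb2b26 averaged 5171 ± 125 CPM in IR+Shh and 5550 ± 2035 CPM in IR+GFP, with -0.10 ± 0.37 (adjusted p = 0.970). The percentage of all genes called by edgeR was 0 here, with 872 genes at an unadjusted p under 0.05, and DESeq2 called 32 genes and limma-voom 0, none of them a secretoglobin listed here.

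**Figure D2:**
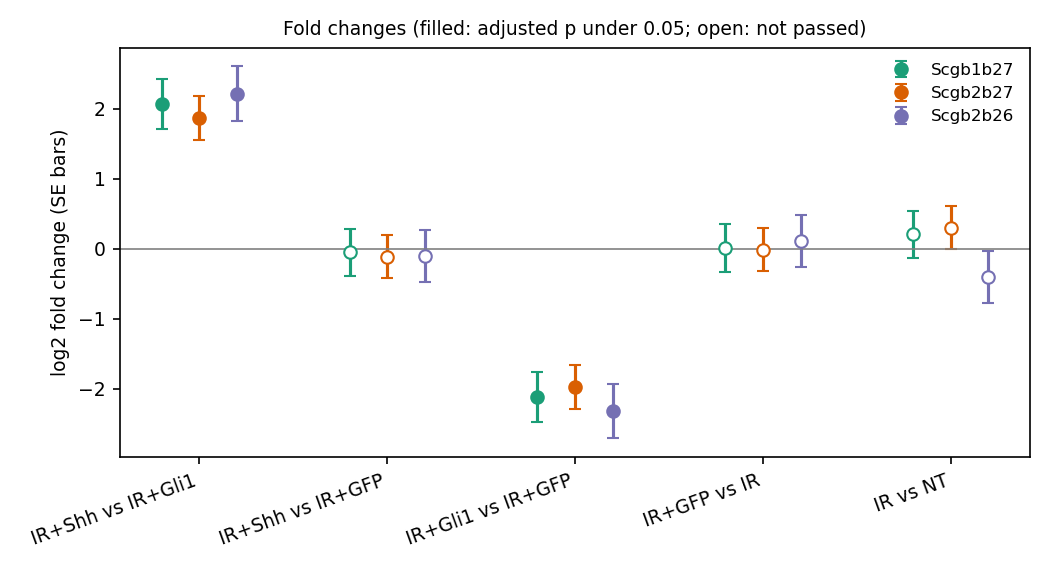
Log2 fold changes (edgeR, with SE bars) of Scgb1b27, Scgb2b27 and Scgb2b26 in the 5 comparisons; filled points passed an adjusted p of 0.05 and open points did not. The points of IR+Shh vs IR+Gli1 lie between 1.87 and 2.22, those of IR+Gli1 vs IR+GFP between -2.32 and -1.98, and the rest around 0.

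Irradiation and control transfer alone gave no call among these genes. In IR compared with NT the log2 fold change was 0.21 ± 0.34 for Scgb1b27, 0.30 ± 0.31 for Scgb2b27 and -0.40 ± 0.37 for Scgb2b26 (edgeR adjusted p = 0.811, 0.659 and 0.620), where 0.678% of all genes were called. Without NT 2 and 3, the sample with high Bpifa2 and Muc19, the values were -0.03, 0.11 and -0.71. In IR+GFP compared with IR they were 0.01 ± 0.34, -0.02 ± 0.31 and 0.11 ± 0.37 for Scgb1b27, Scgb2b27 and Scgb2b26 (edgeR adjusted p = 1 for each). There edgeR called 0% of all genes, with 298 genes at an unadjusted p under 0.05, DESeq2 called 7 genes and limma-voom 0, none of them one of these 3.

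The alpha gene and the sum of its partners kept a nearly fixed proportion while their levels ranged widely. Over the 10 samples the level of Scgb1b27 spanned 7.55-fold, that of Scgb2b27 6.37-fold and that of Scgb2b26 11.3-fold. Pearson's r of log2 CPM over these 10 samples, which share their scaling and are grouped by treatment, was 0.998 for Scgb1b27 with Scgb2b27, 0.968 for Scgb1b27 with Scgb2b26 and 0.957 for Scgb2b26 with Scgb2b27. The summed level of the 2 beta/gamma genes per level of the alpha gene, each per kilobase, was 0.932 to 1.13 over the samples, with a median of 1.01. By this measure, which takes the length of the principal transcript, alpha and beta/gamma RNA stood at about equal levels in all 5 groups.

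Within that sum, reads of Scgb2b27 per read of Scgb1b27 were 0.822 and 0.875 in IR+Shh, 1.03 and 0.949 in the samples labelled IR+Gli1, 0.854 and 0.917 in IR+GFP, 0.901 and 0.898 in IR, and 0.820 and 0.871 in NT. The samples labelled IR+Gli1 had the highest ratios. Reads of Scgb2b26 per read of Scgb2b27 were 0.200 and 0.201 in IR+Shh, 0.157 and 0.157 in the samples labelled IR+Gli1, 0.237 and 0.156 in IR+GFP, 0.178 and 0.185 in IR, and 0.319 and 0.266 in NT. All 8 irradiated samples lay below both NT samples in this ratio, and the NT 1 sample, which lacks the high Bpifa2 and Muc19, had the higher NT value. For IR against NT the difference was -0.111 (exact permutation test, two-sided, p = 0.333, the smallest that 2 samples against 2 can give; 0.714 after Benjamini-Hochberg adjustment over 15 ratio comparisons). None of the 15 comparisons could fall below that p. Groups without overlap had this exact permutation p of 0.333, so a lack of overlap marks no difference by itself. The ratios also share genes and samples, and how often other gene ratios lack overlap was not tested. Groups without overlap were found for every ratio in IR against NT and in IR+Shh against the group labelled IR+Gli1. Scgb2b27 per Scgb1b27 also had no overlap between the group labelled IR+Gli1 and IR+GFP, and the remaining comparisons overlapped.

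**Figure D3:**
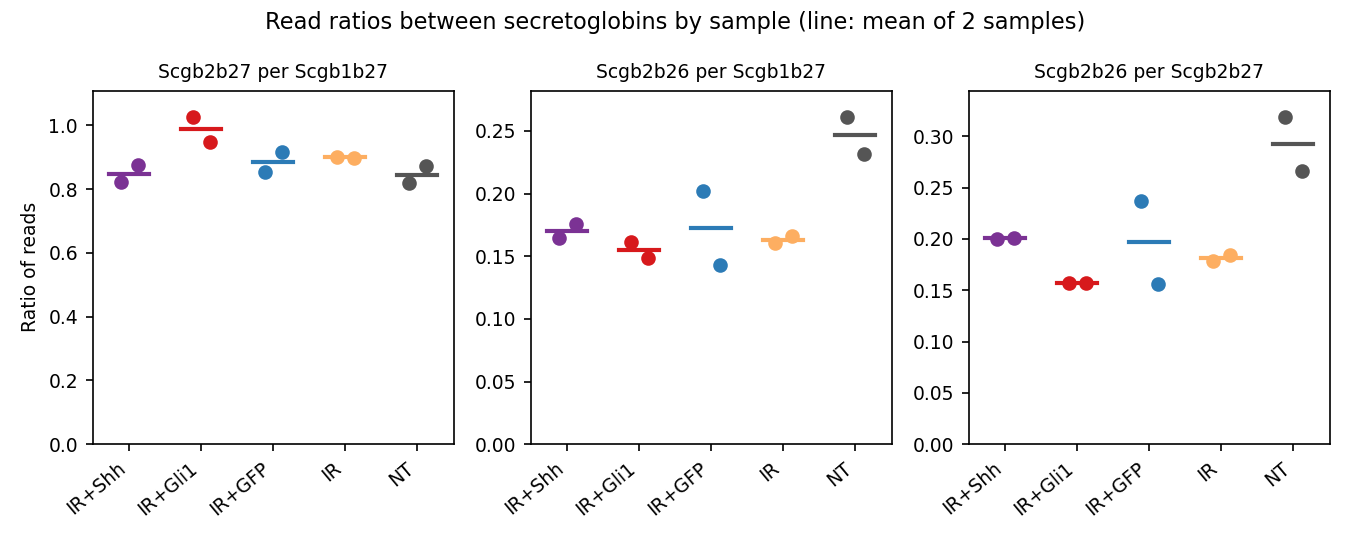
Ratios of reads between pairs of the 3 genes in each of the 10 samples, from IR+Shh at the left to NT at the right (axes from 0); points are samples and lines are means of 2 samples. Scgb2b26 per Scgb2b27 is 0.266 and 0.319 in NT and at most 0.237 in the irradiated samples.

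The 5 other genes were hardly read in any group. Scgb1b2 had 0 reads in all 15 libraries. Scgb1b24 had 1 read in IR+GFP 1 and 1 in NT 1, Scgb2b2 had 1 read each in IR 1 and IR 2, which form 1 sample, and Scgb2b7 had 2 reads, both in NT 2. Scgb2b24 had 74 reads in 13 of 15 libraries, with sums over 3 libraries of 14 in IR+Shh, 9 in the group labelled IR+Gli1, 11 in IR+GFP, 16 in IR and 24 in NT, and at most 12 in a library. None of these reached the filter, so none was tested. As background, Scgb1b24 and Scgb2b24 are neighbours of opposite kind, as are Scgb1b27 and Scgb2b27, and the first pair was at a trace where the other was among the most abundant RNAs.

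Reads with several alignments were not counted, which could hide near-identical genes, so the transcripts were compared with each other. Of all windows of 50 bases, 100% were unique to Scgb1b27, Scgb1b24 and Scgb2b24, 98.3% to Scgb2b26, 96.0% to Scgb1b2, 94.5% to Scgb2b2, 93.5% to Scgb2b27 and 44.2% to Scgb2b7, which shares windows with 8 genes. Of windows of 100 bases, 78.2% were unique to Scgb2b7 and 100% to each of the 7 others. Scgb2b26 and Scgb2b27 transcripts are 83.4% identical, and Scgb2b24 is 80.6% identical to Scgb2b26. Whether the few Scgb2b24 reads came from the abundant Scgb2b26 RNA was not tested.

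Of the 24 other secretoglobins of the files, 14 had 0 reads in all libraries, and 9 had at most 5 reads in a library. Scgb1c1, which lies outside the androgen-binding protein families, was the only one tested, at a level (mean ± SD of 2 samples, CPM) of 5.27 ± 0.15 for IR+Shh, 5.63 ± 1.09 for the group labelled IR+Gli1, 4.25 ± 1.05 for IR+GFP, 3.27 ± 1.88 for IR and 3.37 ± 0.82 for NT. It passed in no comparison, and in the group labelled IR+Gli1 against IR+GFP its log2 fold change was 0.39 ± 0.37 (edgeR adjusted p = 0.549).

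The genes whose level followed Scgb1b27 most closely were ranked by Pearson's r of log2 CPM over the 10 samples, given as a description. They were Ero1lb (r = 0.987), which re-oxidises the enzyme that makes disulfide bonds in the endoplasmic reticulum, Ufl1 (0.986), a ligase of the ufmylation pathway, and Pdha1 (0.984), a subunit of pyruvate dehydrogenase. They were followed by mt-Co3 (0.984), a subunit of cytochrome c oxidase, Tmem178b (0.983), Phkb (0.980), a subunit of phosphorylase kinase, Gid4 (0.979), a subunit of a ubiquitin ligase, Pcca (0.979), a subunit of propionyl-CoA carboxylase, Trap1 (0.977), a mitochondrial chaperone, and Abo (0.976), a glycosyltransferase. Ero1lb was at 145 and 126 CPM in IR+Shh, 58.4 and 83.9 CPM in the samples labelled IR+Gli1, 142 and 125 CPM in IR+GFP, 145 and 135 CPM in IR, and 144 and 114 CPM in NT. On this TMM scale its samples labelled IR+Gli1 were the lowest, but over a narrower range than those of Scgb1b27. The TMM factors were 1.717 and 1.308 in the samples labelled IR+Gli1, against 0.8649 to 0.9944 in the others. Levels and r of these genes depend on that scaling, and likeness under another scaling was not tested.

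Granular convoluted tubules, the androgen-dependent ducts of the male mouse gland, store kallikreins and growth factors, and 20 of their genes were set beside the secretoglobins. In the group labelled IR+Gli1 against IR+GFP, 17 of the 20 were lower, 0 were higher and 3 did not pass, where 5.71% of all genes were called lower. Their median log2 fold change was -1.78, against 0.01 over all genes tested. In the fit of these groups alone and without IR+GFP 1 and 2, 0 of the 20 passed, with medians of -1.79 and -1.76, and the count was 9 without IR+GFP 3 and 10 without IR+Gli1 1 and 2. Klk1b9, a kallikrein, had -2.48 ± 0.37 (edgeR adjusted p = 0.00545). The cysteine-rich secretory protein genes Crisp1 and Crisp3 had -2.59 ± 0.42 and -1.29 ± 0.23 (edgeR adjusted p = 0.00894 and 0.00927), and Klk1b11, another kallikrein, had -1.47 ± 0.27 (adjusted p = 0.0103). The 3 that did not pass, named after their values were seen, were Smr2 at -0.74, Klk1 at -0.30 and Ren1 at 0.05. Kallikrein genes are close copies of each other, so the split of reads between them is uncertain.

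In IR+Shh against the IR+GFP controls, 0 of the 20 granular tubule genes passed, as did 0% of all genes (without the filter on low counts 1 was higher and 9 lower, 2 were lower in the fit of these groups alone, and 1 with 15 separate libraries), and their median log2 fold change was -0.66, against 0.00 over all genes, while the 3 secretoglobins were between -0.11 and -0.05. The summed level of the 20 genes was 160300 to 188700 CPM in IR+Shh, 58040 to 109600 CPM in the samples labelled IR+Gli1, 242800 to 269900 CPM in IR+GFP, 256000 to 351400 CPM in IR and 310600 to 352200 CPM in NT. The summed level in IR+Shh thus lay below the range of IR+GFP, which was so by a narrow margin for Scgb2b27 (at most 26288 CPM in IR+Shh, at least 26297 CPM in IR+GFP) and not so for Scgb1b27 and Scgb2b26. Per total gene reads it was not so for Scgb2b27 either (24751 and 25176 CPM in IR+Shh, 25532 and 23279 CPM in IR+GFP). In IR+Shh against the group labelled IR+Gli1, 2 of the 20 granular tubule genes were higher, where 2.76% of all genes were, namely Klk1b9 (1.73 ± 0.36, edgeR adjusted p = 0.0267) and Klk1b11 (1.15 ± 0.27, edgeR adjusted p = 0.0372), while 3 of 3 secretoglobins passed. This count was 12 with DESeq2, 16 without IR+Gli1 3 and 18 without the filter on low counts, and it was 0 in the fit of these groups alone and without IR+Gli1 1 and 2, IR+Shh 1 and 3, IR+Shh 2 or IR 1 and 2, each left out in turn. It was 3 with limma-voom, 4 with total-count scaling, 18 with 15 separate libraries, and 1 without IR 3, IR+GFP 1 and 2 or IR+GFP 3. Whether the secretoglobins and the granular tubule genes differed from each other in response was not tested. In IR against NT and in IR+GFP against IR, 0 of the 20 passed, with medians of -0.20 and -0.21. Pearson's r of these genes with Scgb1b27 over the 10 samples was 0.276 to 0.921, with a median of 0.841, against -0.04 over all tested genes. These values of r also rest on the TMM scaling.

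**Figure D4:**
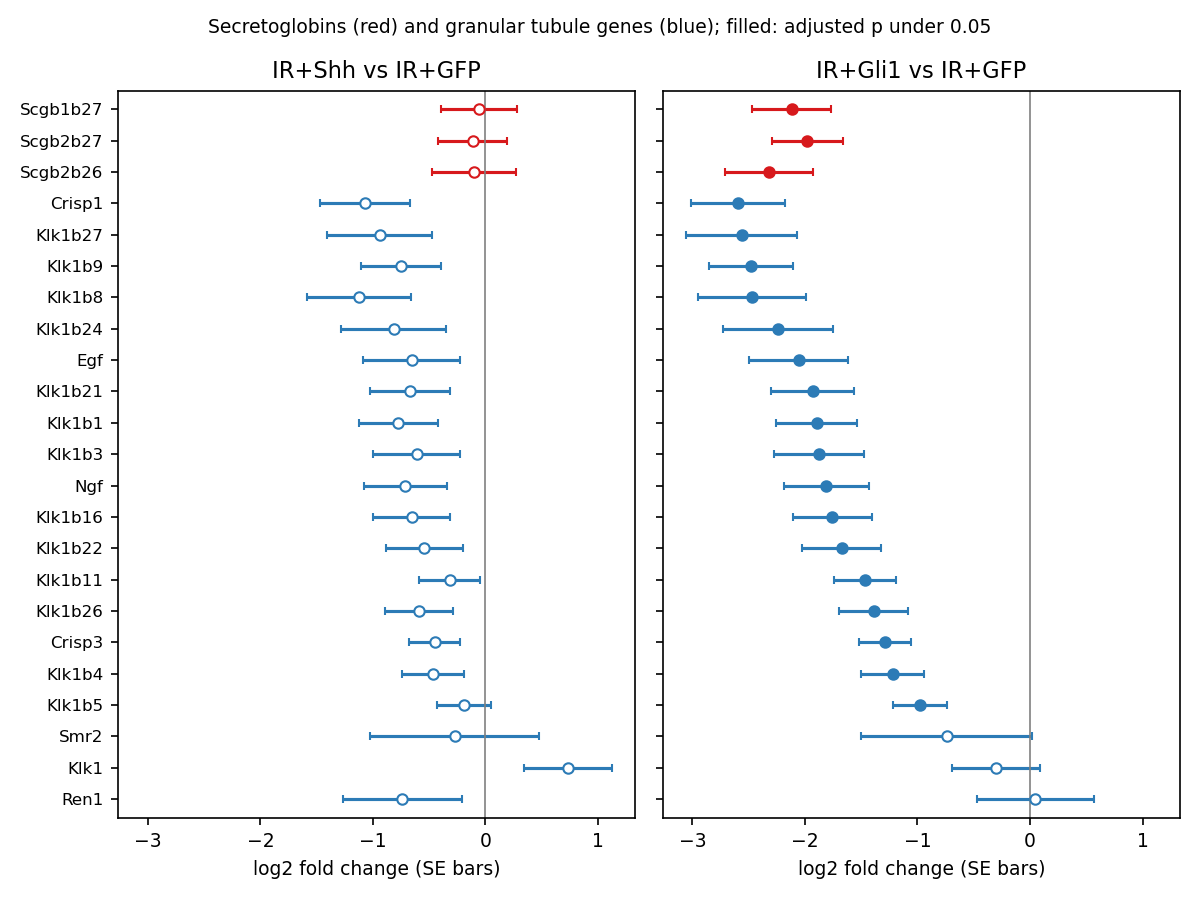
Log2 fold changes (edgeR, SE bars) of the 3 secretoglobins (red) and 20 granular tubule genes (blue) in IR+Shh vs IR+GFP at the left and IR+Gli1 vs IR+GFP at the right; filled points passed an adjusted p of 0.05. At the right 3 of 3 secretoglobins and 17 of 20 granular tubule genes are filled and below 0, and at the left none is filled.

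Of 18 listed androgen signalling genes, 14 were tested. In the group labelled IR+Gli1 against IR+GFP, 2 were higher, 1 was lower and 11 did not pass, with a median log2 fold change of -0.11, where 8.23% of all genes were called higher and 5.71% lower. Under total-count scaling the 14 had a median of 0.68, against 0.79 for all genes, and 10 were called higher and 1 lower. None of the 14 passed in a fit of these groups alone, nor without IR+GFP 1 and 2, IR+GFP 3, IR+Gli1 1 and 2 or IR+Shh 1 and 3, each left out in turn. Srd5a1, a steroid reductase that makes dihydrotestosterone from testosterone, rose by 1.19 ± 0.28 (edgeR adjusted p = 0.0251), and the chaperone gene Hsp90ab1 rose by 0.42 ± 0.12 (adjusted p = 0.0436). Hsd17b3, a dehydrogenase that makes testosterone, had -2.03 ± 0.53 (edgeR adjusted p = 0.0345). In the 4 other comparisons 0 of the 14 passed.

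Markers of several cell types moved alongside the lower secretoglobin levels in the group labelled IR+Gli1. Summed macrophage markers were 175 to 177 CPM in the samples labelled IR+Gli1 and 59.8 to 89.2 CPM in IR+GFP, with 3 of 6 markers called higher (C1qa, C1qb and Cd68), where 8.23% of all genes were. The other listed macrophage markers did not pass, with log2 fold changes of 1.49 for Adgre1, 0.34 for Csf1r and -0.23 for Mrc1. Summed lymphocyte markers were 18.8 to 44.2 CPM in the samples labelled IR+Gli1 and 4.56 to 7.996 CPM in IR+GFP, with both tested markers higher (Nkg7 and Ptprc). Most of that sum was Ptprc, at 36.0 and 15.9 CPM in the samples labelled IR+Gli1 and 3.88 and 6.64 CPM in IR+GFP. The other listed lymphocyte markers, Cd3e, Cd79a and Cd8a, were not tested and stood at no more than 0.685 CPM in these groups. Summed acinar markers were 12830 to 44800 CPM in the samples labelled IR+Gli1 and 32530 to 54800 CPM in IR+GFP, with 1 of 6 tested markers higher (Ano1) and 2 lower (Slc12a2 and Bhlha15). Markers that passed are named after their values were seen. Lacrimal gland markers summed to 219 to 270 CPM in the samples labelled IR+Gli1 and 197 to 218 CPM in IR+GFP, nearly all of it from Mup5. Esp18 went the other way, at 1.10 and 5.81 CPM in the samples labelled IR+Gli1 and 15.7 and 15.1 CPM in IR+GFP, the median log2 fold change of the 3 tested lacrimal markers was -2.26, and none passed. The listed lacrimal genes Obp1a and Obp1b were at 0 CPM in all samples, and Mup4, Esp15 and Esp16 were at no more than 0.512 CPM in these groups. Parotid markers summed to 131 to 146 CPM in the samples labelled IR+Gli1 and 139 to 147 CPM in IR+GFP, with 1 of 3 tested markers lower (Amy1). Sublingual gland markers summed to 2.72 to 5.25 CPM in the samples labelled IR+Gli1 and 9.23 to 49.1 CPM in IR+GFP, with 1 of 3 tested markers lower (Gal3st3). With total-count scaling neither the acinar nor the sublingual list had a marker called lower, and the parotid list had 1 called higher and 0 lower. Intercalated duct markers summed to 31.4 to 39.1 CPM in the samples labelled IR+Gli1 and 29.9 to 191 CPM in IR+GFP. Skeletal muscle markers summed to 0.937 to 1.98 CPM in the samples labelled IR+Gli1 and 2.58 to 3.16 CPM in IR+GFP. In the fit of these groups alone, no marker of the macrophage, lymphocyte, acinar, parotid or sublingual lists passed. The part of these cell types in the secretoglobin result was not tested.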

How the data were processed

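For each of 15 libraries the authors deposited raw read counts by Ensembl gene. Per the labels' protocols, RNeasy-purified RNA (1 ug) went into a TruSeq RNA preparation. The submitters' processing notes name HTSeq 0.10.0, TopHat2 2.0.13, Bowtie 0.12.2 and DESeq2, and the builds mm10 and GRCm38; strand mode and annotation release are not given in the sources used here. Reads given to no gene (no feature 1.31% to 3.81%, ambiguous 1.86% to 3.30%) were left out. GENCODE vM21 gave symbols for 96.0% of genes.

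Near-identical libraries were combined by the rounded mean of their counts (chi-square over genes with at least 20 reads in a pair). All 10 samples were fitted in edgeR 4.0.16 (R 4.3.3; filterByExpr, TMM, robust quasi-likelihood, 1 mean per group), which tested 14300 genes with 5 residual degrees of freedom and a common biological coefficient of variation of 0.191. Two-sided p-values were adjusted across the 14300 genes (Benjamini-Hochberg), and 0.05 was the threshold. The prior count for log2 CPM was 2. Library numbers were not used to pair samples in the main fit: 3 of 30 same-numbered pairs had r over 0.1, with a highest r of 0.395. Whether same-numbered libraries shared their handling was not tested.

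The members and lists were chosen with earlier results of these data known. All members are named. The likeness rule took the 10 non-member genes (no gene models, mean of at least 2 CPM) with the highest r to the most abundant member. Lists give up to 4 examples by smallest adjusted p. A gene that this rule named is not reported here. Alternatives were other scalings and filters, DESeq2 1.42.0, limma-voom (limma 3.58.1), the compared groups alone, 15 separate libraries with and without a replicate block, the deeper library of each pair, and leaving out samples; counting list genes under each of them was added after seeing the data.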

Additional observations from a re-analysis of the deposited data

How the results depend on the processing

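Of 330 refits of a member's fold change, 298 kept direction and side of the threshold, 16 lost the call and 16 turned the sign of a value that had not passed. The count of secretoglobins that passed was 0 in the fit of the compared groups alone, both for the group labelled IR+Gli1 against IR+GFP and for IR+Shh against the group labelled IR+Gli1, and it ranged from 0 to 3 in each when 1 sample was left out. Fewer samples estimate the spread in these fits. In the first of these comparisons edgeR then called 1 of all genes in the fit of these groups alone and 91 without IR+GFP 1 and 2, against 1993 with all samples. In the second it called 9 of all genes in the fit of these groups alone, 4 without IR+Shh 1 and 3, and 0 without IR+Shh 2, against 1109 with all samples.

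Signs turned only among values that had not passed; the cause was not tested. In IR+Shh against IR+GFP, total-count scaling gave 0.0915 for Scgb1b27, 0.0327 for Scgb2b27 and 0.0475 for Scgb2b26, and leaving out 1 sample gave -0.18 to 0.0873 for Scgb1b27 and -0.44 to 0.33 for Scgb2b26. In IR+GFP against IR, limma-voom gave -0.0058 for Scgb1b27. For Scgb2b27 in that comparison, 15 separate libraries gave 0.0412, the same with a replicate block 0.0507, and leaving out IR+GFP 3 and IR+Gli1 3 gave 0.0656. Leaving out 1 sample there gave -0.13 to 0.14 for Scgb1b27, -0.10 to 0.0749 for Scgb2b27 and -0.32 to 0.45 for Scgb2b26. In IR against NT it gave -0.0274 to 0.48 for Scgb1b27.

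With the replicate block in 15 libraries, 3 secretoglobins passed in each comparison with the group labelled IR+Gli1 and 0 in the others; against IR+GFP the log2 fold changes were -2.40, -2.21 and -2.63 for Scgb1b27, Scgb2b27 and Scgb2b26. The block moved the calls among all genes in that comparison to 6495, against 6518 without it; both fits treat near-identical libraries as independent. Depth does not limit the 3 abundant genes, whose precision rests on 2 samples per group.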
